A study of Mus musculus with 10 samples.

Results

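Rbm3-only sites near gene 5' ends are Rbm3 PAR-CLIP sites that shared no nucleotide on the same strand with a Cirbp site. They also lay near the 5' end of a gene locus. A site was taken when it fell in the locus of exactly 1 listed gene and its marked nucleotide was under 1000 nt from the 5' end of that locus. The marked nucleotide is the single position that the deposited site lists single out, and the 5' end was read by the strand of the site. For genes with several transcripts, the locus was that of the transcript with the highest mean FPKM (fragments per kilobase of transcript, scaled to library size) over 8 RNA-seq libraries. Of 2118 Rbm3 sites, 366 overlapped 1 of the 1941 Cirbp sites and 1752 did not. Among the 1752, 317 lay outside all listed loci, 46 lay in loci of more than 1 gene and 1389 lay in the locus of 1 gene. Of these, 255 sites in 199 genes met the distance limit, 163 lay under 1000 nt from the 3' end only, and 971 lay farther inside the gene. Of the 255, 24 sites in 19 genes with short loci were under 1000 nt from the 3' end as well.

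The study profiled mouse embryonic fibroblasts (MEFs), the connective tissue cells grown out of mouse embryos. For PAR-CLIP, MEFs that stably express a FLAG-tagged protein received 100 µM 4-thiouridine for 16 h, and RNA crosslinked to the tagged protein was recovered with an anti-FLAG antibody. There is 1 library for FLAG-tagged Rbm3 and 1 for FLAG-tagged Cirbp, in medium at 37 °C, so no site has a replicate. For RNA-seq, polyadenylated RNA was read in 4 groups of 2 libraries. At 37 °C there were mock-transfected cells, cells given siRNA against Cirbp (siCirbp) and cells given siRNA against Rbm3 (siRbm3), and at 32 °C mock-transfected cells alone. The labels list no control siRNA, so each siRNA group is set against cells that were transfected without one. Nothing states that the pair of libraries in a group came from separate cultures, and p-values then measure only the spread between these libraries.

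Rbm3 and Cirbp are close relatives, each a short protein with an RNA recognition motif and a glycine-rich tail, and both are known as cold-inducible RNA-binding proteins. In PAR-CLIP the thio-modified uridine forms a crosslink under long-wave UV light, and reverse transcription then reads the crosslinked base as a cytidine, which marks the contact at single-nucleotide resolution. RNA near the 5' end of a messenger carries the cap, the leader that the ribosome scans and the start codon, while a microRNA hairpin is so short that any site in it is near its 5' end.

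Of the hosts, 7 were microRNA genes. They are shown first because the letters under the site could be read: the loci had the same length as the RefSeq hairpins (GRCm38.p6), so positions within them could be matched (Mir451 is listed there as Mir451a). A microRNA hairpin is cut by Drosha and Dicer into a mature strand, whose seed (bases 2 to 8) pairs with target messengers. The mature strands under the 7 sites follow, 5' to 3', with the seed in capitals.
miR-96-5p: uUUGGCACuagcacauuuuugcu
miR-20a-5p: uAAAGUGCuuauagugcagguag
miR-18a-5p: uAAGGUGCaucuagugcagauag
miR-200c-3p: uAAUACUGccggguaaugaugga
miR-27b-3p: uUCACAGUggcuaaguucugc
miR-451a: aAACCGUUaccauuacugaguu
let-7i-5p: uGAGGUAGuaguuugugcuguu

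All 7 seeds differed from each other. The sites coincided with the mature strands rather than with the hairpins as a whole. The site and the mature strand had the same first and last base in 4 of the 7 hairpins, those of miR-96, miR-200c, miR-27b and miR-451a. The sites in Mir20a and Mirlet7i began at the first base of the mature strand and ran 1 base beyond its end. The site in Mir18 began 1 base inside the strand and ended 1 base before its end. Hairpins of 3 of these genes are printed with the Rbm3 site in capitals, to show an exact match, a site that runs past the strand and a site inside it.
Mir451: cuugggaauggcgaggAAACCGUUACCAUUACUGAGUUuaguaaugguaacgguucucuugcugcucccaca
Mirlet7i: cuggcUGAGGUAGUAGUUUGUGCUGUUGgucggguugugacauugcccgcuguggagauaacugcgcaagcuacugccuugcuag
Mir18: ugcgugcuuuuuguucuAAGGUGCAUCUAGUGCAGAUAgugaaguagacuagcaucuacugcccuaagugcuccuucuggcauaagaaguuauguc

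The marked nucleotide was a U in 7 of 7 of these hairpins, and in 10 of 10 hairpins over all Rbm3 sites in microRNA loci with a matching RefSeq hairpin. It fell inside the seed of let-7i-5p and of miR-18a-5p, at base 6 of each, and beyond the seed in the others, from base 14 of miR-200c-3p to base 21 of miR-20a-5p and miR-451a. Each microRNA site is close to a 5' end because the whole locus is short, between 69 nt (Mir200c) and 107 nt (Mir20a), so its membership follows from the rule. Rbm3 had 11 sites in microRNA loci, of which 4 (Mir148a, Mir425, Mirlet7b and Mir5109) overlapped Cirbp sites and are no members. Mirlet7b carries the seed GAGGUAG of let-7i, so both proteins had a site on the let-7b arm, while the site on the let-7i arm was on the Rbm3 list only. Sites in Mir184, Mir10a and Mir100 were on the Cirbp list only. Each began at the first base of the mature strand and had a marked U, so this match was not particular to Rbm3. MicroRNA genes were 3 of 37 hosts (8.11%) of Cirbp-only sites near 5' ends, and 7 of 199 (3.52%) of members. The authors gave each site a score, a whole number between 1 and 1000 with a scale that is not given in the sources used here. It was 282 for Mir96, 233 for Mir20a and 1, the lowest possible value, for the other 5.

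**Figure D1:**
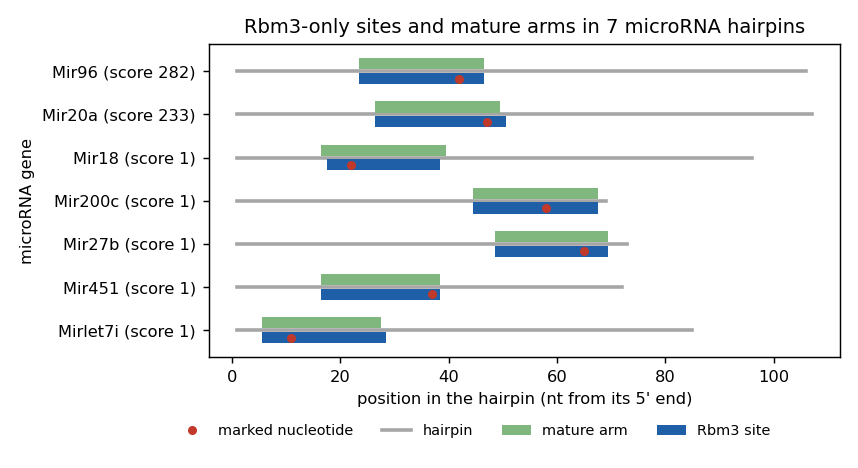
Position in the hairpin (x axis, nt from its 5' end) of the Rbm3-only site (blue bar), the mature arm (green bar) and the marked nucleotide (red point) in the 7 microRNA genes with a site (y axis, with the deposited score), on grey lines that span the hairpin. The blue and green bars have the same ends in 4 hairpins and differ by 1 base at an end or at each end in the other 3.

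Polyadenylated RNA-seq says little about these hairpins. Mir18 stood at 78.3 FPKM in replicate 1 of mock 37 °C and was listed at 0 in the other 7 libraries. Mirlet7i stood at 322, 341 and 335 FPKM in replicate 1 of mock 37 °C, replicate 2 of mock 32 °C and replicate 1 of the libraries labelled siRbm3, and was listed at 0 in the rest. Mir20a was listed above 0 only in replicate 2 of mock 32 °C, at 34.9 FPKM. The other 4 were at 0 FPKM in every library. Each nonzero library thus had a partner at 0 in its own group, and no microRNA host passed a test below.

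Along the 1000 nt, sites were more frequent toward the 5' end. The 5 members upstream of the 5' end are left out of these counts. In steps of 100 nt downstream, there were 36 sites in the bin next to the 5' end and 26, 33, 32, 28 and 25 in the next 5. The last 4 bins held 16, 16, 16 and 22. Of the 36 sites in the first bin, 9 were in hosts with a transcript under 1000 nt, and in the last 4 bins 0 were. Part of the first bin thus follows from the rule, since a short locus can hold no farther site. Distances were counted along the genome, introns included, and what this adds to the counts was not tested. Beyond the limit the numbers went on falling: in steps of 500 nt downstream of the 5' end, the Rbm3-only sites numbered 155, 95, 62, 41, 35, 33, 27 and 17. Of the Rbm3-only sites in the locus of 1 gene, 1376 were in loci that extend through the window. In loci that extend through the last of these steps there were 1255. These spans include introns, and what locus length adds to the fall was not tested. The median distance of a member was 381 nt, with an interquartile range from 191.5 to 631 nt.

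Cirbp-only sites were chosen by the same distance and are set beside the Rbm3-only ones as a description, because the choice of members fixes part of it. Among sites in the locus of 1 gene, 255 of 1389 Rbm3-only sites lay near the 5' end, a share of 18.4% (95% exact Clopper-Pearson interval 16.4 to 20.5%). Of the Rbm3 sites that overlapped Cirbp, 19 of 256 did, a share of 7.42% (interval 4.53 to 11.3%). Of the Cirbp-only sites, 39 of 1271 did, a share of 3.07% (interval 2.19 to 4.17%). The intervals cover counting error only, and a gene with several sites enters once for each of them. Only 3 genes had both a member and a Cirbp-only site near the 5' end. A Cirbp site elsewhere in the gene was more common: 57 of the 199 genes had a Cirbp site of any position, and 72 had a further Rbm3-only site outside the first 1000 nt.

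**Figure D2:**
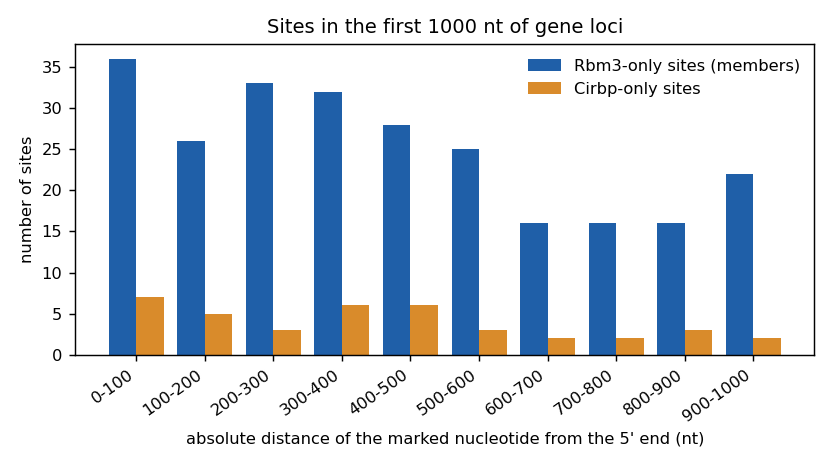
Number of sites (y axis) by distance of the marked nucleotide downstream of the 5' end in steps of 100 nt (x axis). Rbm3-only sites are blue and Cirbp-only sites orange. The axis is labelled as absolute distance, but the 5 members upstream of the 5' end are not drawn. The blue bars run from 36 next to the 5' end to 16 to 22 in the last 4 steps, and the orange bars from 7 to 2.

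Of the members, 5 lay just upstream of the chosen 5' end. Their distances, negative for upstream, were -371 nt in Nr2f2, -208 nt in Ddx17, -24 nt in Arid1a, -5 nt in Dtl and -4 nt in Scarna2, a small Cajal body RNA. The site nearest to a 5' end was in Irf2bp2, at 1 nt, followed by Scarna2, Dtl, Mirlet7i at 10 nt and the histone gene Hist2h2ab at 11 nt. At the other limit, the sites just inside included those in Arid1a (997 nt, score 419) and Alkbh5 (996 nt, score 159). The next sites outside were in Zbtb10 (1005 nt, score 419), Rpl17 (1011 nt, score 282) and 1810026J23Rik (1017 nt, score 360). A few members came close to a Cirbp site without touching it. The gap was 59 nt in Cebpb, 66 nt in Med13 and 98 nt in Jph1, and 22 members had a Cirbp site within 1000 nt. The median distance to the nearest Cirbp site on the same strand was 195217 nt. The gene's strand in RefSeq was known for 207 sites and matched the site in 206. The exception was Fbxo5, whose site lay on the opposite strand and so at the 3' end of the gene itself.

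The sites were short and their scores modest. The median width was 30 nt (range 19 to 140 nt), against 28 nt for Rbm3-only sites near 3' ends and for those inside genes. The median score was 260 (interquartile range 159 to 371), against 371 near 3' ends and 318 inside genes. A score of 1 was given to 37 of the 255 members (14.5%), to 8 of 163 sites near 3' ends (4.91%) and to 69 of 971 sites inside genes (7.11%). Near 5' ends it was also given to 9 of 39 Cirbp-only sites (23.1%) and to 2 of 19 Rbm3 sites that overlapped Cirbp (10.5%). Median scores of these were 201 and 301. Within the members, the score was lowest next to the 5' end, with a median of 159 in the first 100 nt, and medians of 233 to 318 in the other 9 steps. No test was made of these scores, since they come from the libraries that chose the sites.

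The highest scores fell in genes of varied function, and several of these genes were scarcely detected in the RNA-seq libraries. The top site lay in Fbxw2, an F-box protein of a ubiquitin ligase, with a score of 723, 362 nt from the 5' end (mm9 chr2:34678329-34678355, minus strand). The antisense site at Fbxo5 followed with 717 (chr10:4541072-4541095, plus strand). Arf6, a small GTPase of endocytic traffic, had 700 at 967 nt (chr12:70474073-70474149, plus strand). Hoxb9, a homeobox factor of the body axis, had 641 at 685 nt (chr11:96133317-96133339, plus strand), and Twist2, a basic helix-loop-helix factor of mesenchyme, had 611 at 496 nt (chr1:93698539-93698560, plus strand). Kctd12 and Rap2c had 569 each, and the Kctd12 site was the widest of all members at 140 nt. Hnrnpa0, an RNA-binding protein, reached 566, Purb, a single-stranded nucleic acid binding protein, 563, Hoxc6 560 and Maz, a zinc finger transcription factor, 557. These 11 genes make up the 12 highest sites, because Fbxw2 held a further one with a score of 583.

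The top hosts were not the most abundant messengers. Arf6 stood between 43.0 and 59.2 FPKM in all 8 libraries and Fbxw2 between 24.1 and 37.9. Purb stood between 8.44 and 18.8 FPKM, with no group set apart from the others. Hoxb9, in contrast, was listed at 0 in 7 libraries and at 0.0143 FPKM in replicate 1 of mock 32 °C. Hoxc6 did not exceed 0.0514 FPKM and Kctd12 not 0.0912 FPKM in any library. For these 3 genes a site with a score above 500 therefore stands beside a messenger that the RNA-seq libraries scarcely hold. The labels do not say whether the tagged cells and the RNA-seq cells are of the same line, and PAR-CLIP and RNA-seq were read in different libraries.

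In all, 25 of the 199 hosts had a mean under 0.1 FPKM, and 13 of them were at 0 in every library. They comprised 18 protein-coding genes, 6 microRNA, small RNA or histone genes and the pseudogene Marcksl1-ps4. Among the coding genes were developmental transcription factors: Hoxb9, Hoxc4, Hoxc6, Hoxc8, Tlx1, Mnx1, Barx2 and Pou3f1. Site scores of these ranged from 233 in Pou3f1 to 641 in Hoxb9. Others coded for ion channel subunits (Kcng1, Kcng3 and Hcn4). The median host had 18.0 FPKM, against 20.0 for hosts of sites near 3' ends and 15.6 for hosts of sites inside genes, so the middle of the distribution was similar. Hosts under 1 FPKM made up 30 of 199 (15.1%), 15 of 140 and 85 of 707 in the same order. How reads that match several places were assigned is not given in the sources used here, which leaves histone genes, the pseudogene and other genes with near-identical copies uncertain.

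Several hosts held a series of sites. There were 160 genes with 1 member site, 27 with 2, 8 with 3, 3 with 4 and 1 with 5. Neighbouring sites in a gene were a median of 174 nt apart (56 pairs, 29 to 938 nt). Purb, a gene of a single exon with a locus of only 1136 nt, had 5 sites between 32 and 826 nt, with scores from 159 to 563. Fbxw2 had 4 packed between 285 and 596 nt, all with scores of at least 347. Arid1a, a subunit of the SWI/SNF (BAF) chromatin remodeller, had 4 spread from -24 to 997 nt. Msl1, a scaffold of the MSL histone acetyltransferase complex, had 4 between 134 and 521 nt, none above a score of 233.

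The 8 genes with 3 sites include those of the transcription factors Maz, Cebpb and Cebpa. Maz had scores of 201 to 557, and its sites stretched from 115 to 966 nt. Cebpb and Cebpa, leucine zipper factors of the C/EBP family that are each encoded by a single exon, had 3 sites each, between 378 and 951 nt and between 280 and 961 nt. Ski, a corepressor of SMAD proteins, had 3 between 493 and 855 nt, and Irf2bp2, a corepressor, had 3 between 1 and 897 nt. Rhob, a small GTPase gene with a single exon, had 3 between 384 and 778 nt. Tsc22d2 had 3 between 33 and 699 nt, and Jph1, a junctophilin that joins plasma membrane and endoplasmic reticulum, had 3 between 143 and 528 nt. Abundance varied widely among these hosts: Maz stood at 34.0 to 95.7 FPKM over the libraries, while Cebpa stayed under 0.888 FPKM and Jph1 under 0.430.

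**Figure D3:**
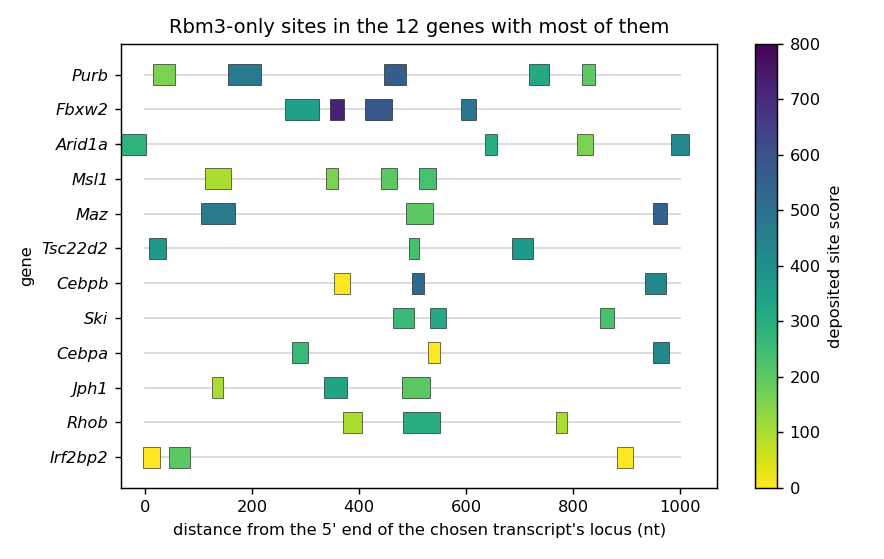
Position of each Rbm3-only site (bars, drawn to their width; x axis, nt from the 5' end of the chosen locus) in the 12 genes with most of them (y axis), coloured by deposited score. Purb holds 5 sites, the 4 sites of Fbxw2 sit within 311 nt of each other, and the 4 of Arid1a span the whole window.

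Hosts of a single exon were frequent among the members. They numbered 42 of 199 genes (21.1%), against 9 of 140 (6.43%) for sites near 3' ends and 19 of 707 (2.69%) for sites inside genes. Near 5' ends they were also 7 of 37 hosts (18.9%) of Cirbp-only sites and 7 of 19 (36.8%) of Rbm3 sites that overlapped Cirbp. The trait was thus not particular to Rbm3-only sites. A short gene can hold only a site near an end, so part of this follows from the rule. With loci of at least 3000 nt only, 7 of 157 hosts of members (4.46%) had a single exon. So had 4 of 128 hosts of sites near 3' ends (3.13%) and 11 of 694 of sites inside genes (1.59%). Histone genes, which lack introns, were hosts in 6 cases (Hist1h1c, Hist1h2bm, Hist2h2ab, Hist2h2bb, Hist2h4 and H2afx) and in none of the sites near 3' ends or inside genes. The loci of Hist2h4, Hist1h2bm, Hist2h2ab and Hist2h2bb span 348 to 493 nt. For these the absence elsewhere follows from the rule, which counts any site in so short a locus as near the 5' end. The strongest histone site was in the linker histone gene Hist1h1c, with a score of 506 at 712 nt, and Hist1h2bm had sites of 472 and 101.

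Promoters of the hosts, the 250 bases before to 50 after the gene start in RefSeq (GRCm38.p6), were rich in G and C. Of 192 hosts other than microRNA genes, 154 were in the table, with a median GC content of 65.7% and a median of 27 CG dinucleotides, read on the printed strand. Hosts of sites near 3' ends had 63.8% and 25, and hosts of sites inside genes had 64.7% and 25. All 27025 promoters of the table had 52.7% and 7. Hosts of Cirbp-only sites near 5' ends had 61.8% and 24, with 26 of 34 in the table. The high GC content was thus shared by Rbm3 hosts wherever the site lay and by these Cirbp hosts. Promoters of expressed genes alone were not compared. Messenger sequences under the sites were not read, since no genome of the mm9 build was used here.

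By function, regulators of transcription and RNA were the largest groups among 11 lists of genes. The chromatin and transcription list had 11 of its 87 genes among the hosts. They included Brd2 (score 548), a bromodomain reader of acetylated histones, H2afx (477), the histone variant phosphorylated at DNA breaks, Arid1a (419) and Yy1 (401), a zinc finger factor. The RNA processing and RNA-binding list had 8 of 110, led by Hnrnpa0 (566), Hnrnpk (360), Hnrnpa2b1 (347) and the helicase gene Ddx17 (260). The splicing list had 3 of 56, the SR protein genes Srsf1 (334), Srsf4 (159) and Srsf2 (1). The signalling list had 4 of 77, with Bmpr2 (410), a BMP receptor, Ppp2ca (347), a catalytic subunit of protein phosphatase 2A, Ywhag (159), a 14-3-3 protein, and Gsk3a (101), a kinase.

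The remaining lists held few hosts. Cell cycle and replication had the inhibitor genes Cdkn2c (466) and Cdkn1b (1) of 63. Cytoskeleton and adhesion had Rhob (301) and Vim (1), which encodes the intermediate filament vimentin, of 77. Hspa5 (360), the endoplasmic reticulum chaperone BiP, was the only host of 76 secretory genes, Eif4g1 (159), a scaffold of cap-binding, the only one of 86 translation genes, and Snhg1 (260), a noncoding snoRNA host, the only one of 25 such RNAs. None of the 73 extracellular matrix genes and none of the 65 genes of mitochondria and metabolism was a host. As a share of hosts, chromatin and transcription genes made up 5.53% of members, 4.29% near 3' ends and 3.25% inside genes, and RNA-binding genes 4.02%, 4.29% and 4.24%.

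The RNA-seq libraries held 24.8 to 27.8 M mapped reads. The targeted messengers were read for each label. For Rbm3, mock 37 °C had 1.85 and 2.21 FPKM, while the siRbm3 label had 3.05 in replicate 1 and 1.16 in replicate 2, so replicate 1 goes against its label. Rbm3 was at 3.64 and 3.20 FPKM with mock 32 °C, and siCirbp gave 5.54 and 7.55. For Cirbp, siCirbp gave 10.8 and 6.07 FPKM where mock 37 °C gave 15.9 and 17.1, mock 32 °C gave 34.5 and 37.2, and the siRbm3 label gave 13.8 and 23.8. Neither Rbm3 nor Cirbp held a site of either protein. Of 10 fibroblast markers, 9 had a mean of at least 1 FPKM and Thy1 was at 0 in all libraries. Fibroblast markers summed to 2802 to 6747 FPKM per library. The sums were 11.2 to 33.3 FPKM for adipocyte, 7.05 to 39.2 for neural and 3.61 to 21.3 for blood markers. They were 0.0947 to 7.68 FPKM for epithelial, 0.560 to 3.21 for muscle and 0.134 to 0.383 for the 4 endothelial markers. For expression, 10901 genes with a mean of at least 1 FPKM were tested with limma on log2(FPKM + 1), which understates the change of low genes. Among them were 169 of the 199 hosts. A gene is called when its two-sided p with Benjamini-Hochberg adjustment over all genes is under 0.05. In bulk RNA, fewer cells with a transcript and less of it per cell cannot be told apart.

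Cold is the condition in which both proteins are known to rise, and the 32 °C comparison asks how transcripts with an Rbm3-only 5' site stood in the cold. At 32 °C most hosts that changed were lower. Of the 169 hosts, 62 were called, a share of 36.7%, beside 32.8% of all tested genes. Of these, 51 fell (30.2%, beside 19.8% of all genes) and 11 rose (6.51%, beside 13%). The median log2 difference was -0.37 for the hosts and -0.02 for all genes. Hosts of Rbm3-only sites inside genes had a median of -0.28 with 29.3% lower, and hosts of sites near 3' ends -0.12 with 20.0% lower, so a lower level in the cold was shared with the genes that hold Rbm3 sites in their bodies. No p is given for these shares, since the members were chosen with results of these data known.

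Transcript length moved with this comparison. The tested hosts had a median transcript of 3243 nt, against 2766 nt for all tested genes and 4136 nt for hosts of sites inside genes. With the trend of log2 values on length taken out of each library, the median of the hosts was -0.18 and that of all genes 0.01. In that setting 58 hosts were called (34.3%, beside 30.8% of all tested genes), 46 lower and 12 higher. Of the 58, 51 were among the 62 called without this step. Without a single mock library the count fell to 17 (37 °C replicate 1), 9 (37 °C replicate 2), 18 (32 °C replicate 1) or 9 (32 °C replicate 2). The shares were 10.1%, 5.33%, 10.7% and 5.33% of hosts, beside 6.01%, 3.65%, 7.58% and 3.62% of all tested genes. Of the 62 called hosts, 8 (Alkbh5, E130308A19Rik, H2afx, Junb, Kdm3b, Pak4, Rhob and Samd1) passed without any single library, and 54 lost the call without at least 1.

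The 6 largest falls were in Egln1, Rhob, Junb, Samd1, Alkbh5 and Pak4. Egln1, the prolyl hydroxylase that marks hypoxia-inducible factors for degradation, had 198 and 205 FPKM with mock 37 °C and 36.9 and 39.8 in mock 32 °C. This is a mean of 201.3 ± 5.05 against 38.3 ± 2.06 FPKM (SD, n = 2) and a log2 difference of -2.36 (SE 0.39, limma adjusted p = 0.00613). Its site lies 279 nt from the 5' end with a score of 371. The siCirbp libraries held 184 and 88.6 FPKM and those labelled siRbm3 163 and 313, so only the 32 °C libraries were apart from all the others.

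Rhob, with its 3 sites, had 74.3 and 85.7 FPKM with mock 37 °C and 15.7 and 17.2 in mock 32 °C, a log2 difference of -2.21 (SE 0.25, limma adjusted p = 0.00244). The siCirbp libraries (30.7 and 38.8 FPKM) and those labelled siRbm3 (31.7 and 54.1) lay between the mock groups without overlap. Junb, a subunit of the AP-1 transcription factor, went from 140 and 184 FPKM to 35.8 in each 32 °C library, a log2 difference of -2.14 (SE 0.26, limma adjusted p = 0.00272). Samd1, a chromatin protein, went from 26.9 and 31.3 FPKM to 5.92 and 6.50, and Alkbh5, a demethylase of N6-methyladenosine in RNA with 2 sites, from 62.9 and 60.6 to 17.5 and 17.7 FPKM. Their log2 differences were -2.06 (SE 0.22) and -1.75 (SE 0.19). Pak4, a kinase downstream of Cdc42, went from 10.8 and 12.9 to 3.59 and 3.26 FPKM, by -1.53 (SE 0.18). All 6 genes had no overlap between the mock groups.

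The largest rises at 32 °C included Atf4, Hspa5, Nif3l1, Atp1b1 and Jagn1. Atf4, the transcription factor of the integrated stress response, had 155 and 160 FPKM with mock 37 °C and 358 in each of the 32 °C libraries, a log2 difference of 1.18 (SE 0.22, limma adjusted p = 0.00913). Hspa5 stood at 304 and 305 FPKM and at 604 and 649, a difference of 1.04 (SE 0.14, limma adjusted p = 0.00360). The Atf4 site has a score of 101 at 466 nt, and the Hspa5 site 360 at 312 nt. Nif3l1 went from 10.1 and 11.4 to 20.7 and 23.8 FPKM, by 0.98 (SE 0.17). Atp1b1, the beta subunit of the sodium pump, rose by 0.81 (SE 0.25) and Jagn1, a protein of the endoplasmic reticulum, by 0.75 (SE 0.14). The adjusted p values of these 3 ran from 0.00733 to 0.0406 in limma. No library overlapped between the mock groups for any of these genes.

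The lists moved unevenly in the cold. Of the 11 chromatin and transcription hosts, 8 fell and 1, Atf4, rose, with a median log2 difference of -0.91. Over the whole list 54 of 86 tested genes fell and 3 rose, with a median of -0.74. The log2 differences were -1.51 for H2afx, -1.37 for Arid1a, -0.91 for Yy1 and -0.75 for Brd2. Arid1a had 15.7 and 16.9 FPKM with mock 37 °C and 6.08 and 5.28 in mock 32 °C. Of the 8 RNA-binding hosts, Pcbp1 and Igf2bp1 fell and none rose, beside 21 lower and 7 higher of 108 for the list. Of the 3 splicing hosts, Srsf4 fell, from 26.8 and 29.9 to 15.4 and 13.8 FPKM, beside 13 lower and 3 higher of 55 for the list. Of the 4 signalling hosts, Ywhag and Gsk3a fell, beside 34 lower and 2 higher of 77. Of the cell cycle and replication list 32 of 63 genes fell and 6 rose, and its host Cdkn2c rose from 14.3 and 13.7 to 19.7 and 22.1 FPKM, by 0.54 (limma adjusted p = 0.0290).

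Among the top-scoring hosts, Fbxw2 rose and Fbxo5 fell. Fbxw2 had 24.1 and 24.2 FPKM with mock 37 °C and 33.4 and 37.9 in mock 32 °C, a log2 difference of 0.54 (SE 0.14, limma adjusted p = 0.0255). Of the genes with several sites, Maz (-0.79), Ski (-0.79), Msl1 (-0.77) and Irf2bp2 (-0.74) fell as well, on the log2 scale. Hnrnpa0 (limma adjusted p = 0.0583), Arf6 (0.0833), Purb (0.107) and Cebpb (0.0724) were lower in both 32 °C libraries than in either mock 37 °C library and did not pass. Hosts with 2 or more sites had a median of -0.45, with 13 of 33 lower and 2 higher, and those with 1 site -0.35, with 38 of 136 lower and 9 higher. Single-exon hosts had a median of -0.53, with 9 of 28 lower and none higher.

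**Figure D4:**
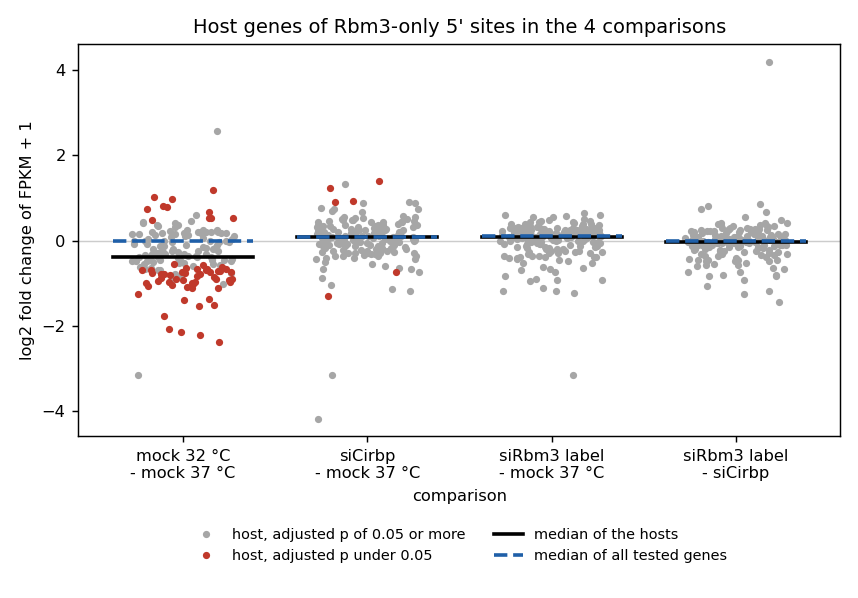
Log2 difference of FPKM + 1 (y axis) of each of the 169 tested hosts (points) in the 4 comparisons (x axis), red where limma's adjusted p is under 0.05. The black line (median of the hosts) lies at -0.37 below the dashed blue line (median of all tested genes, -0.02) in the 32 °C comparison, and the lines nearly coincide in the others. Grey points beyond 2.5 in either direction are microRNA hosts listed at 0 in most libraries.

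**Figure D5:**
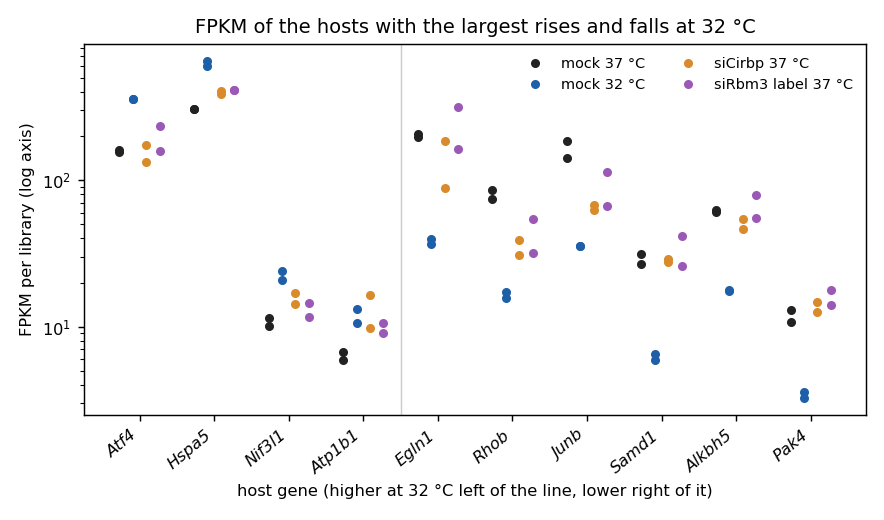
FPKM in each of the 8 libraries (y axis, log scale) of 10 called hosts at 32 °C (x axis, the 4 largest rises on the left and the 6 largest falls on the right), with 2 points per group. The blue points of mock 32 °C stand apart from the black points of mock 37 °C in all 10.

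The siCirbp comparison asks whether transcripts that hold an Rbm3-only 5' site differed after siRNA against the other protein. Of the 169 hosts, 6 were called (3.55%), beside 3.39% of all tested genes, so the share was near that of all genes. There were 4 rises (2.37%, beside 2.77%) and 2 falls (1.18%, beside 0.624%). This comparison and the 32 °C one use the same mock 37 °C libraries. Fbxo5, an inhibitor of the anaphase-promoting complex, stood at 17.9 and 23.0 FPKM in siCirbp and at 7.51 and 6.57 in mock 37 °C, a log2 difference of 1.41 (SE 0.21, limma adjusted p = 0.0266). The libraries labelled siRbm3 held 9.98 and 7.07 FPKM of it, and those at 32 °C 1.80 and 2.38. Its site is the one on the opposite strand.

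Among hosts with a site on their own strand, Hmgn2, a nucleosome-binding protein gene with many processed copies in the genome, stood at 9.50 and 8.94 FPKM against 3.19 and 3.50, a difference of 1.23 (SE 0.16, limma adjusted p = 0.0234). Cdkn2c stood at 30.5 and 25.3 FPKM against 14.3 and 13.7, a difference of 0.94 (SE 0.15, limma adjusted p = 0.0284). Hnrnpab, an RNA-binding protein gene with 2 sites, stood at 174 and 204 FPKM against 95.6 and 103, a difference of 0.92 (SE 0.15, limma adjusted p = 0.0326). The hosts that fell were Junb, at 67.2 and 62.9 FPKM against 140 and 184, a difference of -1.29 (SE 0.26, limma adjusted p = 0.0449), and E130308A19Rik, with -0.74 (SE 0.15, limma adjusted p = 0.0499). The siCirbp and mock 37 °C libraries did not overlap for any of the 6. The split into 4 higher and 2 lower became 4 and 3 with the libraries centred on their medians, and 3 and 4 with quantile normalization.

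These 6 calls were not stable, and neither were the calls over all genes, which made up 3.39% in the main fit. None of the 6 was left without a filter on low values, beside 0.191% of all tested genes. None was left with the replicate number as a block (beside 0.0275%) or with only the siCirbp and mock 37 °C groups in the fit (beside 0.119%). With the length trend removed there was 1 (0.592%, beside 0.862% of all tested genes). Leaving out a single library, so that 1 remains in a group, ended calls in some cases and added calls in others.

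The comparison of the siRbm3 label with mock 37 °C bears most directly on Rbm3, and it called no host. Limma called 0 of 169 hosts and 0% of all 10901 genes, while 27 hosts and 1451 genes had an unadjusted p under 0.05. No other tool was run. Replicate 1 goes against its label, since Rbm3 was higher there than in mock 37 °C, and each direction in this comparison rests partly on it. The median log2 difference was 0.10 for the hosts and 0.12 for all genes. The lowest p values with a lower level belonged to Zfp281, a zinc finger factor, and Arhgap5, a GTPase-activating protein. Zfp281 stood at 15.5 and 8.73 FPKM in the libraries labelled siRbm3 and at 27.9 and 27.8 in mock 37 °C, by -1.19 (SE 0.24, limma adjusted p = 0.350). Arhgap5 stood at 12.7 and 7.02 FPKM against 22.4 and 22.9, by -1.17 (SE 0.24, limma adjusted p = 0.350). Both libraries of the label were below both mock libraries for these genes, and replicate 2 was the lower. Rhob was next with -0.93.

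On the other side, Hmgn2 (0.65), Cdkn2c (0.60) and Kctd1 (0.61) had the lowest p values, also with limma adjusted p = 0.350. Hmgn2 stood at 6.50 and 5.21 FPKM and Cdkn2c at 22.3 and 21.1 FPKM, between the levels of mock 37 °C and siCirbp. Without replicate 1 of the label, when the remaining library is assumed to vary like the other groups, 21 hosts were called (12.4%), 19 of them lower, beside 951 of all tested genes (8.72%). They included Phip, at 9.37 and 2.73 FPKM in the libraries labelled siRbm3 against 13.5 and 13.8 in mock 37 °C, Nipbl, the cohesin loader, at 23.4 and 8.47 against 31.6 and 32.3, and Suz12, a subunit of Polycomb complex PRC2, at 28.3 and 12.8 against 28.3 and 27.2. These 3 were named after their values were seen. In each, replicate 2 was the lower library, and for Suz12 replicate 1 lay within 0.1 FPKM of mock 37 °C replicate 1.

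Set directly against siCirbp, the libraries labelled siRbm3 gave no called host either. Limma called 0 of 169 hosts, beside 0.0367% of all tested genes (0.0183% in each direction). An unadjusted p under 0.05 was found for 18 of the 169 hosts and for 1654 of the 10901 tested genes. Fbxo5 was at 9.98 and 7.07 FPKM against 17.9 and 23.0 in siCirbp, by -1.18 (SE 0.21, limma adjusted p = 0.221). Dtl, a substrate receptor of a ubiquitin ligase that acts in S phase, was at 6.51 and 3.10 FPKM against 9.68 and 15.1, by -1.24 (SE 0.31, limma adjusted p = 0.221). Hnrnpa2b1, an RNA-binding protein gene, was at 212 and 144 FPKM against 296 and 287, by -0.73 (SE 0.20, limma adjusted p = 0.225). The libraries did not overlap in these 3 genes. E130308A19Rik (0.68), Ppapdc2 (0.56) and Fermt2 (0.41), which encodes the integrin activator kindlin-2, had the lowest p values on the higher side. Without replicate 1 of the siRbm3 label, which leaves 1 library in that group, 41 hosts were called (24.3%, beside 19.6% of all tested genes), 27 lower and 14 higher.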

How the data were processed

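Sites were used as deposited by the authors, as BED lists on mm9, 1 library per protein. The score is the authors' own, and per the file headers the lists passed a filter named fp_0.05. What the filter does and which tool called sites are not given in the sources used here. Overlap meant at least 1 shared nt on the same strand. FPKM and coverage values, as deposited by the authors for 28702 RefSeq transcripts, come from tables of the kind Cufflinks writes. TopHat 1.1.2 and mm9 are named in the submitters' processing notes, and the Cufflinks version and annotation release are not given in the sources used here. The ratio of deposited coverage to FPKM gave the mapped reads per library.

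FPKM was summed per gene (22552 genes). Values were tested as log2(FPKM + 1), for 10901 genes with a mean of at least 1 FPKM, by limma 3.58.1 (R 4.3.3, options trend and robust) with a mean for each of the 4 groups and 4 residual degrees of freedom. The fit was checked on simulated data. Sequences are from RefSeq (GRCm38.p6), matched by symbol, locus length and strand.

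The members, gene lists and tests were chosen with earlier results of these data known. Named are Rbm3 and Cirbp, hosts of the 12 top-scoring sites, the 12 genes that hold most members, sites nearest to the limits, and up to 4 hosts per list by score. Per comparison they are up to 6 called rises and 6 falls without overlap of libraries and with a group mean of 5 FPKM or more, or the 3 smallest p in each direction where fewer than 3 passed. Some results that fall under this rule are not reported here. Further names were chosen after their values were seen.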

Additional observations from a re-analysis of the deposited data

How the results depend on the processing

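The number of member sites was 255. It was 160 with a limit of 500 nt and 99 with only scores of at least 318, the median of all Rbm3 sites. It lay between 206 and 358 with a limit of 2000 nt, a stricter or looser overlap, the midpoint of the site, the outermost 5' end or the annotated strand only. Called hosts in the 32 °C comparison numbered 62. With no filter on low values the count was 0, with only the 2 groups compared 120, and without single libraries 9 to 85. Over the other settings tried, apart from those that leave out a library, it ran from 46 to 73. The 46 were of 121 hosts with sites within 500 nt (38.0%, beside 32.8% of all tested genes). The 73 came with quantile normalization (43.2%, beside 35.7%). Centring on medians moved the median of all genes from -0.02 to 0.11. For siCirbp the 6 calls became 0 with no filter, 1 with the length trend removed, 0 with the replicate block, 0 with only the 2 groups compared, and 0 to 24 without single libraries. For the siRbm3 label the count was 0 to 21, and between the siRNA groups 0 to 41, without single libraries. Removing the length trend was chosen after the data were seen. The cause of these shifts was not tested.

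Each of the 6 hosts named for siCirbp lost the call in at least 9 of 17 settings. No direction turned. Libraries share replicate numbers, but correlations of their deviations ran from -0.153 to 0.0914, so no pairing was assumed. The replicate block gave 61 calls at 32 °C (36.1%, beside 29.2% of all tested genes). It gave 0 for the siRbm3 label (beside 0%) and 0 between the siRNA groups (beside 0.0275%). Groups of 2, and 1 PAR-CLIP library per protein, limit all values.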
